A study of Nicotiana tabacum with 9 samples.

Results

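Transcripts of 3 genes related to photoprotection and peroxide removal were followed across light intensities in cigar tobacco leaves: early light-induced protein (ELIP), zeaxanthin epoxidase and catalase isozyme 1. They were taken by gene identifier from a table of 123 genes. The study grew the variety H382 of Nicotiana tabacum, an allotetraploid, and sequenced total leaf RNA at the seedling stage. The groups differ, by their labels, in light intensity alone: 50, 100 or 200 µmol m-2 s-1, called light 50, light 100 and light 200 here. Each has 3 biological replicates. The sources used here give neither the length of the light treatment nor the plants' age in days.

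ELIPs are thylakoid membrane proteins of the chlorophyll a-b binding family. They are made when leaves green or meet strong light, and are thought to hold free chlorophyll so that it does not pass energy to oxygen. Zeaxanthin epoxidase works in the chloroplast on the xanthophyll cycle, in which strong light turns violaxanthin into zeaxanthin, a pigment that helps to release excess light energy as heat. The epoxidase runs the cycle backwards, to violaxanthin, and so also feeds the route to the hormone abscisic acid. Catalase splits hydrogen peroxide into water and oxygen in peroxisomes, where much of the peroxide in a leaf comes from photorespiration.

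The ELIP gene (Nitab4.5_0000977g0030) lies on the plus strand of Nt14, from 113456482 to 113458425, with a coding length of 597 bases. Its name comes from a match to the pea protein. The zeaxanthin epoxidase gene (Nitab4.5_0002016g0120) lies on the minus strand of Nt17, from 145236523 to 145243444, with a coding length of 1995 bases, and matches the Nicotiana plumbaginifolia enzyme. The catalase gene (Nitab4.5_0000407g0130) lies on the plus strand of Nt15, from 32215057 to 32219226, with a coding length of 1479 bases, and matches tobacco catalase isozyme 1. Coordinates and names are those of the deposited table, for which the sources used here name no genome build. Tobacco carries several catalases: 4 genes of the RefSeq catalogue of variety K326 (ASM71507v2) have a catalase synonym. Reads of near-identical copies, such as those inherited from both parent species, cannot be placed on 1 copy with certainty, so each value may include reads of a sister gene. The library kit does not mark strand, and reads of an overlapping antisense transcript cannot be told apart.

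Libraries held 12395758 to 16603534 reads, of which the 123 genes took 4.63% to 7.37%. In the authors' deposited table, a change from light 50 to light 200 is marked for 122 of the 123. The table is therefore a selection, and a call in that comparison is not independent evidence. Comparisons with the middle intensity share the light 50 or the light 200 libraries with that comparison. Their calls, and all p-values adjusted over the 123 genes, are thus not independent of the selection either. The green leaf marker list had 18 genes in the table, with group means from 30.7 to 10283 FPKM (fragments per kilobase of gene length, scaled to library size). All 18 were called lower at light 200 than at light 50 (16 with TMM, 17 with RLE factors), where 52% of the whole table was called lower. Other tissues had 1 matching gene each: a lipid-transfer protein on the trichome list went from 126.5 ± 27.4 to 43.4 ± 6.20 FPKM, a tubulin on the cell division list from 98.1 ± 20.5 to 33.4 ± 4.58, and a berberine bridge enzyme-like gene on the root list from 0.482 ± 0.17 to 3.2 ± 0.993 (SD, n = 3). None of these product names by itself shows a tissue, and the part of such genes in the results below was not tested. In whole leaves, fewer cells of a type and less RNA per cell cannot be told apart.

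From light 50 to light 200, ELIP transcripts rose 5.43-fold on the scale of the test, catalase fell 2.70-fold and zeaxanthin epoxidase fell 1.59-fold. ELIP stood at 44.7, 42.1 and 40.7 FPKM in the light 50 libraries. The light 100 libraries read 82.9, 122 and 109.7 FPKM, and the light 200 libraries 209, 284 and 279. The lowest library of each group lay above the highest of the group below it, an order without overlap that 30.9% of the table's genes showed. Taken pair by pair, 47.2% of genes were higher without overlap for 200 against 50, 41.5% for 100 against 50 and 35.8% for 200 against 100. Mean levels were 42.5 ± 2.05, 105 ± 20.1 and 257 ± 41.9 FPKM (SD, n = 3), a 6.05-fold difference between the ends of the range. Between 331 and 2672 reads lay behind each value.

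Catalase was the most abundant of the 3 transcripts in every group. Its light 50 libraries read 2517, 2244 and 1912 FPKM. Those of light 100 read 1692, 1291 and 1498 FPKM, and those of light 200 read 811, 825 and 1129.7. Every library lay below those of the next lower intensity, a falling order without overlap that 30.1% of the table's genes showed. Pair by pair, 50.4% of genes were lower without overlap for 200 against 50, 41.5% for 100 against 50 and 35.8% for 200 against 100. Replicate 3 was the highest library at light 200, at a level between the other light 200 libraries and the lowest light 100 library. Group means were 2224 ± 303, 1494 ± 201 and 922 ± 179.9 FPKM (SD, n = 3), a 2.41-fold difference from light 50 to light 200, with 17401 to 51021 reads behind each value.

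Zeaxanthin epoxidase changed least. It had 561, 501 and 455 FPKM in the light 50 libraries. The light 100 libraries had 401, 419.9 and 432 FPKM, and the light 200 libraries 346, 364 and 349.5. Its 3 groups did not overlap either, the same falling order that 30.1% of the table's genes showed. The lowest light 50 library and the highest light 100 library were close. Means were 506 ± 53.4, 418 ± 15.6 and 353 ± 9.14 FPKM (SD, n = 3), a 1.43-fold difference between the ends of the range. The spread between replicates was 10.6% of the mean at light 50 and 2.59% at light 200.

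**Figure D1:**
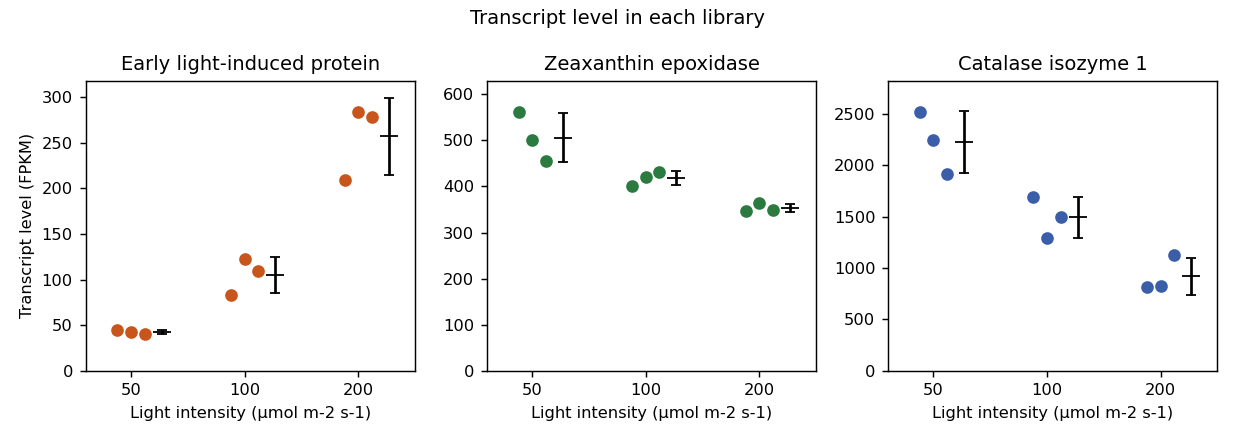
Transcript level in FPKM (vertical axes, each from 0) against light intensity for each gene. Coloured points are single libraries, and black bars give the mean and SD of 3 libraries. ELIP goes from about 42.5 to 257 FPKM, while zeaxanthin epoxidase goes from 506 to 353 and catalase from 2224 to 922.

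Because FPKM is given per length, levels of the 3 genes can be set side by side. At light 50 the mean level of catalase was 52.3 times that of ELIP, at light 100 it was 14.2 times and at light 200 it was 3.59 times. Zeaxanthin epoxidase stood 11.9, 3.98 and 1.37 times above ELIP at the same intensities. The order of the 3 transcripts, catalase above zeaxanthin epoxidase above ELIP, was therefore the same in all groups. Among the 123 genes, ELIP moved from rank 74 by mean level at light 50 to rank 55 at light 100 and rank 33 at light 200. Zeaxanthin epoxidase stayed between ranks 22 and 25 and catalase between ranks 12 and 15.

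Changes between groups were tested on read counts with edgeR's quasi-likelihood test, with library sizes from the authors' size factors and Benjamini-Hochberg adjustment over all 123 genes. On that scale, ELIP changed by a log2 of 2.44 ± 0.19 (SE) from light 50 to light 200 (edgeR adjusted p = 2.66e-07), a 5.43-fold rise. ELIP ranked 10 among rises in the table. Catalase had a log2 change of -1.43 ± 0.16 (edgeR adjusted p = 4.32e-06), rank 19 among falls. Zeaxanthin epoxidase had a log2 change of -0.67 ± 0.13 (edgeR adjusted p = 0.000276), rank 55 among falls. For comparison, 47.2% of the table's genes were called higher and 52% lower, with a median log2 change of -0.58 over all 123. Being called in this comparison therefore sets none of the 3 genes apart from the table.

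The first doubling of light, from 50 to 100, brought a log2 change of 1.24 ± 0.18 (SE) in ELIP (edgeR adjusted p = 0.000139). In the same step 42.3% of genes were called higher and 40.7% lower (52 and 50 genes, against 58 and 13 with TMM and 32 and 63 with median centring). Catalase changed by -0.65 ± 0.16 on the log2 scale (edgeR adjusted p = 0.00378), a call that was lost with TMM scaling (log2 change -0.35, adjusted p = 0.0997). Zeaxanthin epoxidase changed by -0.35 ± 0.13 (edgeR adjusted p = 0.0253). Under TMM the change of zeaxanthin epoxidase was -0.06 (adjusted p = 0.583). Leaving out light 50 replicate 1 also ended its call (-0.24, adjusted p = 0.0898). The same held for light 100, where its adjusted p was 0.085 without replicate 1 and 0.0597 without replicate 2.

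The second doubling, from 100 to 200, changed ELIP by a log2 of 1.20 ± 0.18 (SE; edgeR adjusted p = 0.000425), rank 5 among rises, in a step where 21.1% of genes were called higher. Catalase changed by -0.78 ± 0.16 (edgeR adjusted p = 0.00208), while 39% of genes were called lower. The 26 higher and 48 lower calls of this step became 43 and 36 under TMM, 45 and 17 under RLE factors, 42 and 42 under library totals, and 14 and 56 under median centring. Zeaxanthin epoxidase changed by -0.33 ± 0.13 (edgeR adjusted p = 0.0407). This call of zeaxanthin epoxidase was lost with TMM, RLE factors, library totals and DESeq2 (adjusted p = 0.0916, 0.384, 0.0525 and 0.0511) and in each fit without 1 library (adjusted p up to 0.127), except those without light 50 replicate 1 or light 50 replicate 3. Over the whole range of light, by contrast, its adjusted p stayed at or under 0.0247 in every alternative run.

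**Figure D2:**
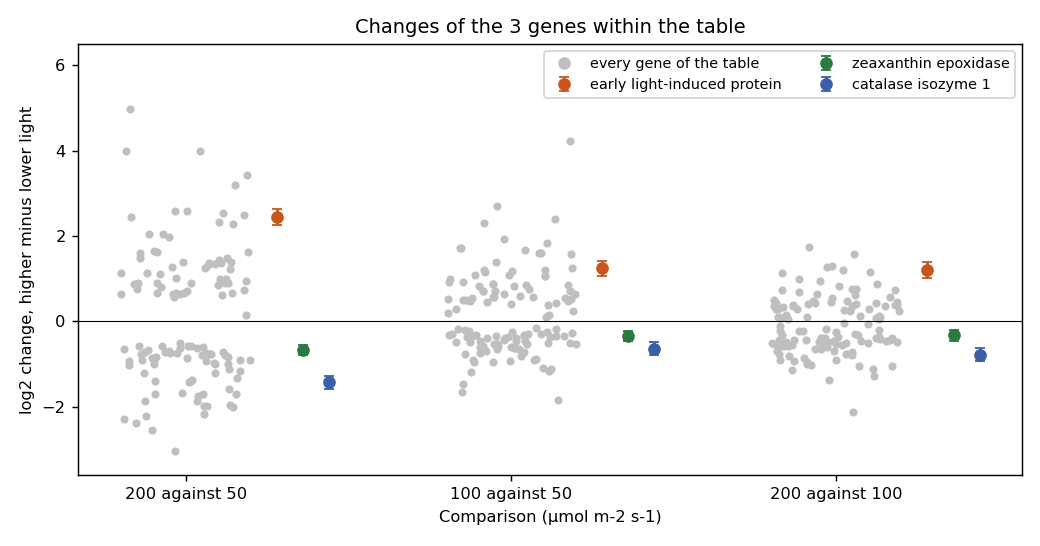
log2 change between light intensities (vertical axis) for each pair of groups (horizontal axis). Grey points are the 123 genes, coloured points the 3 genes with their SE. ELIP lies among the upper grey points in all 3 comparisons, catalase among the lower, and zeaxanthin epoxidase nearer 0.

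The adjustment in the authors' deposited table covered at least 30470 genes, and its directions are the same. It marks ELIP as higher in all 3 comparisons, with adjusted p of 0.000125, 6.42e-06 and 1.14e-22 for 100 against 50, 200 against 100 and 200 against 50. Catalase is marked as lower in all 3 of the authors' deposited comparisons, narrowly for 100 against 50 (adjusted p = 0.0482). Zeaxanthin epoxidase is marked in the authors' deposited table only for 200 against 50 (adjusted p = 0.00228), and not for the single doublings (adjusted p = 0.538 and 0.399). For the same doublings, the edgeR adjusted p of 0.0253 and 0.0407 covered the 123 selected genes only. Of all 123 genes, 23.6% carry a mark for higher and 12.2% for lower in the 100 against 50 columns of the authors' deposited table, and 11.4% and 20.3% in those of 200 against 100.

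No difference between the 2 doublings of light was detectable in any of the 3 genes. The second log2 change minus the first was -0.03 for ELIP (95% interval -0.70 to 0.64), 0.02 for zeaxanthin epoxidase (-0.46 to 0.50) and -0.14 for catalase (-0.72 to 0.44), with edgeR adjusted p of 0.956, 0.956 and 0.791. The intervals are wide, so they do not show that the doublings acted alike. Of all genes, 2.44% (3 genes) were called for this difference, against 23 genes with TMM, 9 with DESeq2 and 14 without light 50 replicate 1.

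The ratio of 2 transcripts within a library cannot be moved by any scaling of that library. The log2 ratio of ELIP to zeaxanthin epoxidase, per length, was -3.65, -3.57 and -3.48 in the light 50 libraries. The light 100 libraries gave -2.27, -1.78 and -1.98, and the light 200 libraries -0.73, -0.36 and -0.33. It went up by 1.55 per doubling of light (exact permutation test over 1680 arrangements, two-sided, p = 0.00119, the smallest this design can give; adjusted over the 3 ratios, p = 0.00179). With equal groups this slope rests on the light 50 and light 200 libraries alone, the comparison on which the table was selected, so the exact p-values of the ratios are not independent evidence. The log2 ratio of ELIP to catalase had group means of -5.70 ± 0.13, -3.84 ± 0.48 and -1.84 ± 0.26 (SD, n = 3). It went up by 1.93 per doubling, again at the smallest exact p of 0.00119 (adjusted p = 0.00179). Neither of these ratios overlapped between groups. That, and the smallest exact p, follow from the levels above, where ELIP rose and the other 2 genes fell without overlap.

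Catalase also fell relative to zeaxanthin epoxidase. The log2 ratio of zeaxanthin epoxidase to catalase was -2.16, -2.16 and -2.07 in the light 50 libraries. It was -2.08, -1.62 and -1.79 in the light 100 libraries and -1.23, -1.18 and -1.69 in the light 200 libraries. Neighbouring groups overlapped, through light 100 replicate 1 and light 200 replicate 3, while the light 50 and light 200 libraries did not. The slope was 0.38 per doubling (exact permutation test, two-sided, p = 0.00476, adjusted p = 0.00476). Without 1 light 50 or light 200 library this slope was 0.33 to 0.45 (adjusted exact p up to 0.0125). Leaving out a light 100 library cannot move the slope, but the adjusted exact p was then up to 0.0143.

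**Figure D3:**
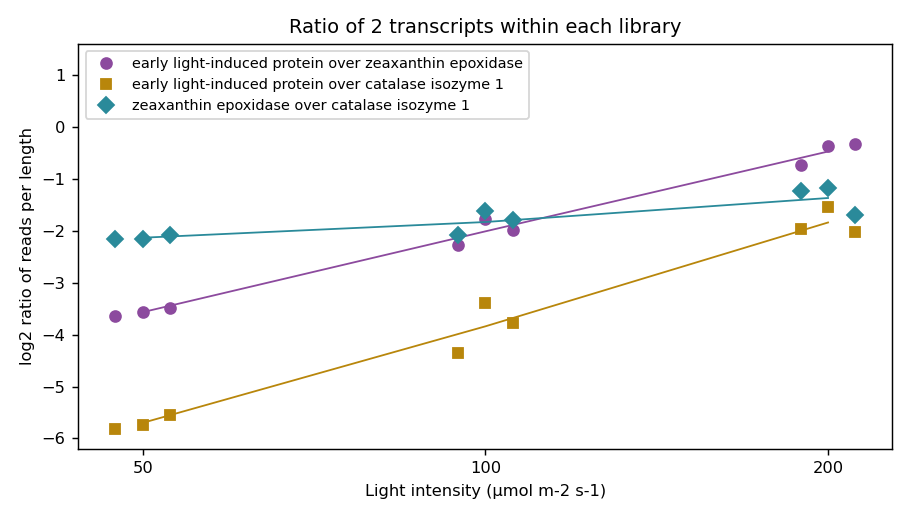
log2 ratio of reads per length between 2 of the genes (vertical axis) in each library, against light intensity (horizontal axis). Points are libraries and lines join group means. Both ratios with ELIP on top climb by 1.55 and 1.93 per doubling, and that of zeaxanthin epoxidase to catalase by 0.38.

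Few other genes of these pathways were in the table. The photoprotection and carotenoid list held ELIP and zeaxanthin epoxidase alone, so violaxanthin de-epoxidase, which runs the xanthophyll cycle forwards, was not analysed here. The list for removal of reactive oxygen held catalase and 1 other gene, thioredoxin-like protein CXXS1 (Nitab4.5_0002345g0090). CXXS1 was listed because its product name holds the word thioredoxin, which does not show that it removes reactive oxygen. It went from 209 ± 35 FPKM at light 50 to 142 ± 12.2 at light 100 and 101 ± 36.4 at light 200 (SD, n = 3). Its log2 change over the range was -1.21 (edgeR adjusted p = 0.000233). The photorespiration list held 0 genes.

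On the abscisic acid side of zeaxanthin epoxidase, 2 genes were picked by product name after the lists had been applied. ABA DEFICIENT 4 (Nitab4.5_0000912g0240), needed in Arabidopsis to make neoxanthin from violaxanthin, had 117.6 ± 43.8, 64.3 ± 10.6 and 35.3 ± 2.72 FPKM at the 3 intensities (SD, n = 3). Its log2 change from light 50 to light 200 was -1.88 (edgeR adjusted p = 1.27e-05), and it was also called lower in both doublings. Xanthoxin dehydrogenase (Nitab4.5_0002812g0020), which acts later in abscisic acid synthesis, had 68.3 ± 12.7, 62.4 ± 5.24 and 45.2 ± 6.4 FPKM, a log2 change of -0.75 over the range (edgeR adjusted p = 0.00176). With TMM that change was smaller and not called (-0.32, adjusted p = 0.0676). Geranylgeranyl pyrophosphate synthase (Nitab4.5_0000110g0240) makes a precursor shared by carotenoids and the tail of chlorophyll. It had 94.6 ± 17.5, 121 ± 16.5 and 164 ± 17.6 FPKM, a log2 change of 0.64 (edgeR adjusted p = 0.00457) that was not called with median centring (0.15).

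Zeaxanthin epoxidase and catalase moved in the direction of the light-harvesting machinery, and ELIP in that of the flavonoid genes. From light 50 to light 200, all 19 antenna and photosystem genes were called lower, with a median log2 change of -0.88, and all 9 phenylpropanoid and flavonoid genes were called higher, with a median of 2.53. Of the whole table, selected on this comparison, 52% were called lower and 47.2% higher, with a median of -0.58. With TMM, 18 of the 19 and 9 of the 9 were called in those directions, with medians of -0.46 and 2.96. The antenna and photosystem list holds every green leaf marker above except ribulose bisphosphate carboxylase/oxygenase activase 1. Its count is therefore not separate from that of those markers. The largest changes were those of chlorophyll a-b binding protein 16 (-2.0) and probable chalcone--flavonone isomerase 3 (3.98). Of 4 chlorophyll synthesis genes 3 were called lower, led by a protochlorophyllide reductase (-1.98), and geranylgeranyl pyrophosphate synthase was higher. With TMM or RLE factors 2 of these 4 were called lower, and with median centring 0 were called higher. ELIP, though a relative of the antenna proteins, thus changed in the opposite direction to the antenna genes of the list. In the first doubling the flavonoid median was 1.72, above the 1.24 of ELIP, and in the second it was 0.98, below its 1.20.

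**Figure D4:**
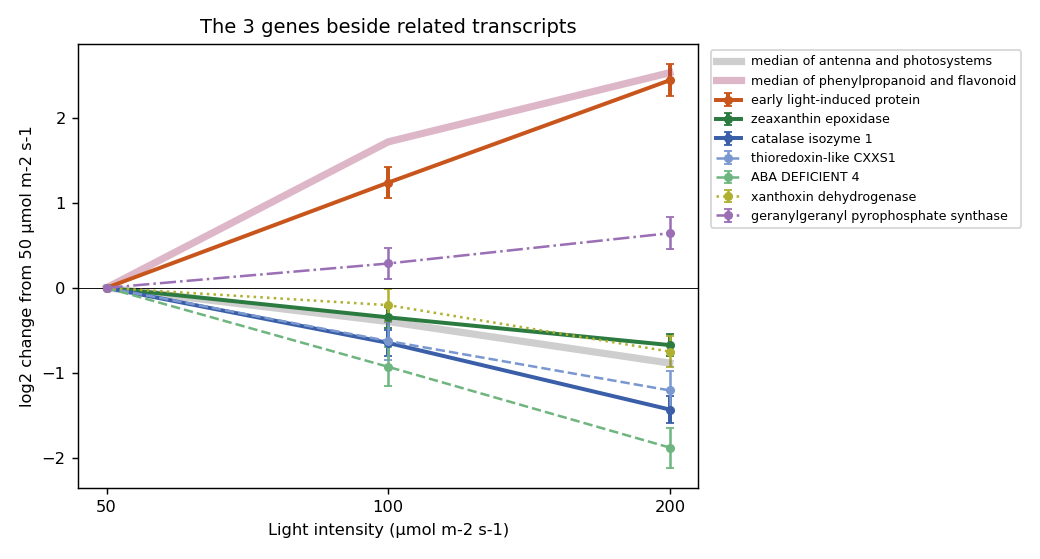
log2 change from light 50 (vertical axis) against light intensity, with SE bars, for the 3 genes (thick lines) and 4 related genes (thin lines). Broad pale lines are medians of the antenna and photosystem list and of the phenylpropanoid and flavonoid list. ELIP and the flavonoid median end at 2.44 and 2.53, while the other 2 genes and the antenna median end below 0.

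The table's genes most like each of the 3 were found by Pearson correlation of log2 CPM (library-scaled counts) over the 9 libraries. Only genes with a product name were listed, with 1 gene per name. The values are a description only, since all genes share the same libraries and scaling and nearly all were chosen as changed. ELIP was most like naringenin,2-oxoglutarate 3-dioxygenase (r = 0.978), a flavanone hydroxylase, an anthocyanidin 3-O-glucosyltransferase (Nitab4.5_0001043g0030, r = 0.976) and Nudix hydrolase 19 (r = 0.968). Zeaxanthin epoxidase was most like photosystem I reaction center subunit III (r = 0.979), the lipid-transfer protein (r = 0.977) and CURVATURE THYLAKOID 1B (r = 0.976), a protein that bends thylakoid membranes in Arabidopsis. Catalase was most like the kinase STY17 (r = 0.977), a subtilisin-like protease SBT1.9 (Nitab4.5_0002388g0010, r = 0.974) and the same lipid-transfer protein (r = 0.968). Such values were common: of the other 122 genes, 34 had r over 0.9 with ELIP, 41 with zeaxanthin epoxidase and 18 with catalase.

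**Figure D5:**
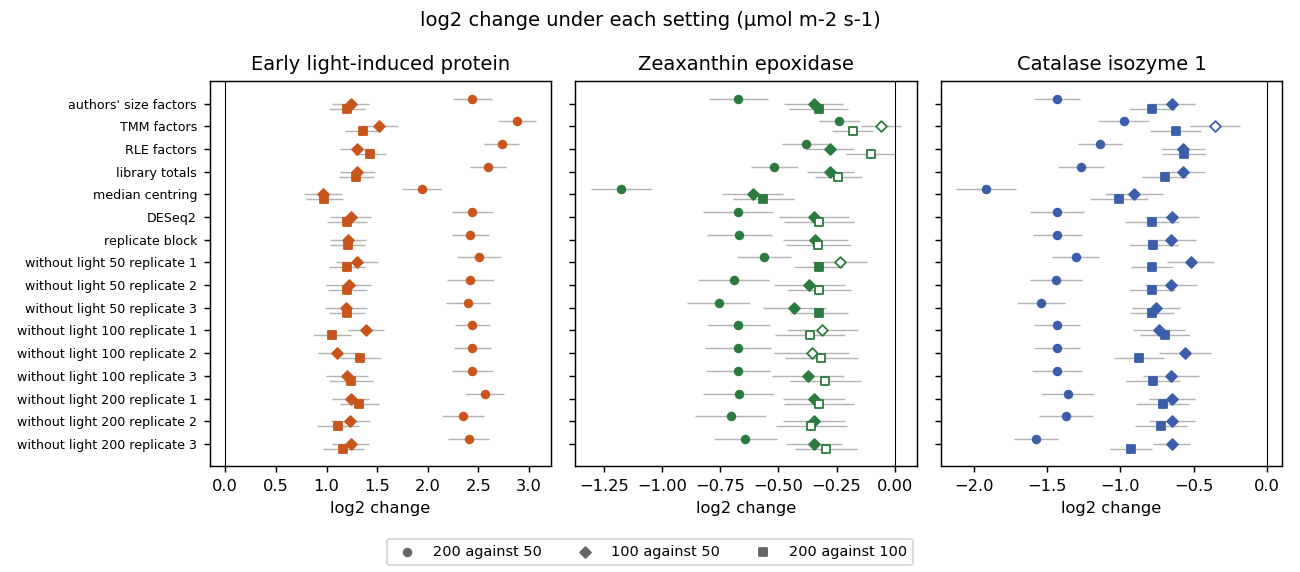
log2 change with SE (horizontal axes) of each gene for 3 comparisons (marker shapes), under the authors' size factors, other scalings, DESeq2, the replicate block and without each library (vertical axis). Filled markers passed an adjusted p of 0.05 and open ones did not. ELIP and catalase are filled but for catalase with TMM in 100 against 50, and the open markers of zeaxanthin epoxidase lie in the single doublings.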

How the data were processed

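Leaf RNA of 9 libraries was sequenced after NEBNext Ultra library preparation, per the labels' protocols. CASAVA 1.7, HISAT and HTSeq appear in the submitters' processing notes. The deposited table gives raw read counts and the authors' FPKM values, per the file headers. It also gives, per the file headers, the authors' normalised mean counts per group (counts divided by size factors), and, for each pair of groups, log2 fold changes with raw and adjusted p-values by the authors. Coding lengths were all multiples of 3. Library totals came from count, FPKM and length. Size factors were recovered from the authors' mean normalised counts (largest relative error 5e-10) and joined into 1 set, from which they differed by at most 0.188%. They were used in place of TMM because the table holds genes chosen as changed.

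Counts were fitted with edgeR 4.0.16 in R 4.3.3 (glmQLFit, glmQLFTest, two-sided, filterByExpr, which removed 0 genes) on the 9 libraries together, with light group as sole factor, adjusted over 123 genes at 0.05, and tested on simulated data. Alternatives were TMM, RLE, library totals, median centring, DESeq2 1.42.0, no filter, a replicate block and leaving out each library. Ratios used a prior count of 0.5. The named genes were the 3 members, the members of the pathway lists and the most extreme gene of each larger list. Added to these were the 3 genes most like each member, among genes with a product name and with 1 gene per name. Members and lists were chosen with earlier results of these data known. The reference catalogue matched 0 of the identifiers. Replicates differed by more than counting noise (chi-square statistic 23.6 to 102 times its degrees of freedom), so each counts as 1 sample. The edgeR p-values set each change against the spread between these samples, estimated partly from the table's other genes. The exact p-values of the ratios come from rearranging the light labels instead.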

Additional observations from a re-analysis of the deposited data

How the results depend on the processing

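Under the 7 other settings and without each of the 9 libraries, ELIP kept its direction and call in all 3 pairs of groups, with a log2 change for 200 against 50 of 1.94 to 2.88 across settings and 2.35 to 2.56 without 1 library. Catalase did so too (-1.92 to -0.98 and -1.58 to -1.30 for 200 against 50), except with TMM for 100 against 50 (-0.35). Zeaxanthin epoxidase kept its call for 200 against 50 (-1.18 to -0.24 and -0.76 to -0.56), but not for 100 against 50 with TMM (-0.058), nor for 200 against 100 with TMM (-0.18), RLE (-0.10), library totals (-0.24), DESeq2 (-0.33) or the replicate block (-0.33, adjusted p = 0.0646). Without 1 library its changes were -0.43 to -0.24 for 100 against 50 and -0.36 to -0.30 for 200 against 100. Relative to the authors' factors, the table-wide median log2 change for 200 against 50 moved by 0.43 under TMM and by -0.50 under median centring. The cause of the lost calls was not tested.

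The difference between the doublings was near 0 and changed sign with RLE (0.13 for ELIP, 0.0060 for catalase), median centring (0.016 for ELIP) and TMM (-0.12 for zeaxanthin epoxidase), with no call. Without 1 library it ran from -0.33 to 0.23 for ELIP, -0.090 to 0.11 for zeaxanthin epoxidase and -0.31 to 0.043 for catalase. The number of genes called for it was 3, against 23 with TMM, 5 with library totals, 9 with DESeq2, 6 with the replicate block and 1 to 14 without 1 library (14 when light 50 replicate 1 was left out, 5 for light 100 replicate 3, and 1 each for light 100 replicate 2 and light 200 replicate 2). For 200 against 100, 74 genes were called and 40 to 80 without 1 library, 40 of them without light 100 replicate 3 and 46 without light 200 replicate 1. With TMM, 58 genes were called higher and 13 lower for 100 against 50, in place of 52 and 50. With a prior count of 5 the ratio slopes were 1.54, 1.92 and 0.38. Permuting labels within the replicate block leaves the slopes as they are and gave an adjusted exact p of 0.00926 for each, the smallest that scheme can give.

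Replicate numbers are shared by the groups but no label says what they mark. Of 9 same-numbered pairs of libraries, 4 had deviations from their group means that correlated over 0.1 (range -0.45 to 0.549). These values do not settle whether same-numbered libraries belong together. Without a label to pair them, the libraries were not treated as pairs, and the block changed no other call of the 3 genes. With 3 libraries a group, the SE of a log2 change was 0.13 for zeaxanthin epoxidase, 0.16 for catalase and 0.19 for ELIP in 200 against 50.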

Other observations

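Deviations of log2 level from the group means correlated at r = 0.504 between ELIP and zeaxanthin epoxidase, which go in opposite directions across light (r = -0.888 over the 9 libraries). For zeaxanthin epoxidase and catalase the within-group value was 0.325, against 0.927 over all libraries, and for ELIP and catalase it was -0.045 against -0.941. The points share library scaling, which moves all genes of a library together, and 9 libraries leave these values as a description.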
